A study of Mus musculus with 35 samples.

Results

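The 43 genes described here are interferon-stimulated genes, chosen by symbol from a list that includes the signalling genes Irf7, Irf9 and Stat2, the ubiquitin-like modifier Isg15, the Ifit, Oas and Mx families, sensors of foreign nucleic acid such as Rigi and Ifih1, and 3 guanylate-binding proteins. Each symbol matched 1 of the 57186 genes in the count table, and all 43 were among the 20606 genes with enough reads to be tested. The 35 RNA-seq libraries were made from whole lungs of mice whose age the series gives as 14 days, untreated or at 2, 5 or 7 days after naphthalene, a compound that injures the club cells of the airway. Control mice had the genotype RORaf/f, in which the Rora gene carries sites for Cre recombinase. KO mice had the genotype RORaf/fIl7riCre, in which Cre made from the Il7r locus acts in cells that express Il7r or descend from cells that did. Both genotypes therefore carry the altered Rora alleles, and the label of the controls names no Cre, so the Cre and the loss of RORa cannot be told apart in any genotype comparison. Untreated mice of each genotype carry the same day labels of 2, 5 and 7, and whether the age of 14 days holds at the start or at the sampling of each is not stated. Of the 12 groups, 11 had 3 libraries and the KO mice at day 7 after naphthalene had 2. No label states that libraries of a group came from separate mice, and p-values measure the spread between these libraries.

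Interferons are secreted proteins that cells release when they sense viral or bacterial nucleic acid. Type I interferons bind the receptor made of Ifnar1 and Ifnar2 and, through the kinases Jak1 and Tyk2, activate a complex that holds Stat2 and Irf9 and binds an element in the promoters of its target genes. The products of these targets block the replication of viruses at many steps, and several of them, such as Irf7 and the sensors, make the cell answer faster to the next signal. Healthy tissue, lung included, keeps a low standing level of many of these genes.

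The binding element, the interferon-stimulated response element, was searched on both strands by its core, which is GAAA, any 2 bases and GAAA again (read from the other strand, TTTC, any 2 bases and TTTC). RefSeq promoter windows of build GRCm38.p6, from 250 bases before to 50 bases after a gene's start, were at hand for 33 of the 43 members, as 39 windows, because 6 members had more than 1. The core was present in 20 of the 39 windows (51.3%), against 3.44% of all 32851 windows of the same length, and it was found in 18 of the 33 members. The core TTCNNNGAA (N is any base, and the core reads alike on both strands), known from promoters that answer to interferon gamma, was present in 15.4% of the member windows and in 8.3% of all windows. A match describes the letters only and is not evidence of binding. Stretches of 150 bases that end at the base before the start are printed for 5 members, chosen after their values were seen. Isg15, Ifit1, Rsad2 and Gbp3 were among the members that fell most at day 2, and Cmpk2 is the gene next to Rsad2, and was not called. The stretches are read in the direction of the gene, with the cores in capitals, from chr4:156200819-156200968 (minus strand) for Isg15, chr19:34640739-34640888 (plus strand) for Ifit1, chr12:26456453-26456602 (minus strand) for Rsad2, chr3:142559894-142560043 (plus strand) for Gbp3 and chr12:26469065-26469214 (plus strand) for Cmpk2.
Isg15: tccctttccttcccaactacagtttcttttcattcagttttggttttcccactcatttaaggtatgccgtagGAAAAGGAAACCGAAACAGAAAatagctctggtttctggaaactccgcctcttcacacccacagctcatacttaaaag
Ifit1: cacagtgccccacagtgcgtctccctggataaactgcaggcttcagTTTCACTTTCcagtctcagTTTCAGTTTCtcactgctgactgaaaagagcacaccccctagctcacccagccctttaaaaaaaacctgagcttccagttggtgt
Rsad2: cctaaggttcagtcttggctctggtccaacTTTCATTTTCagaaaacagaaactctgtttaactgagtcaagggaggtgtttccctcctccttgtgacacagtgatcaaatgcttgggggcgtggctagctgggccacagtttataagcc
Gbp3: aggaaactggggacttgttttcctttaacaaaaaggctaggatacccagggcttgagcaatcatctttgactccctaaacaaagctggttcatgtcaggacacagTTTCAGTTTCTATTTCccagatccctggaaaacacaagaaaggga
Cmpk2: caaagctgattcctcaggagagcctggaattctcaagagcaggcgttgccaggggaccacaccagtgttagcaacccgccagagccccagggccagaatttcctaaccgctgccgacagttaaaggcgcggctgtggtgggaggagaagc
The Isg15 stretch holds 3 overlapping cores, whose first bases lie 78, 72 and 66 bases before the start. Ifit1 has 2 separate cores, Gbp3 has 2 that overlap, Rsad2 has 1, and the Cmpk2 stretch has none.

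Interferon transcripts themselves were nearly absent. The 21 interferon genes of the table include the alpha family, Ifnb1, Ifnk, Ifnz, Ifng and the lambda interferons. They had 147 reads in all 35 libraries together, with 0 to 10 reads in a library. Most of these reads came from Ifnk (58) and Ifnz (43), and the lambda genes Ifnl2 and Ifnl3 had 0. Ifnb1 had 0 reads in every library, and a count of 0 allows up to 3 reads. Ifng had 34 reads in all, at most 4 in a library, so none of the interferon genes passed the filter for testing. Library totals ran from 10.7 to 21.06 M counts (M being mega), so that 1 read was worth 0.0487 to 0.0886 CPM (counts per M counts of a library, after scaling). Markers of lung were present in each library, with Sftpc of alveolar type 2 cells at 4850 to 20900 CPM and Pecam1 of endothelium at 626 to 1080 CPM. Rora stood at 25.2 to 64 CPM and did not pass the test between genotypes in untreated mice (log2 difference, KO minus control, 0.18 ± 0.12 SE, adjusted p = 0.612). The gene total covers every cell of the lung, most of them outside the reach of the Cre, and does not check the genotype labels.

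At day 2 after naphthalene, over control and KO mice together, 21 of the 43 members fell and none rose, against 4.3% of all tested genes that fell and 5.6% that rose (edgeR quasi-likelihood test, Benjamini-Hochberg adjusted p under 0.05). The median log2 difference of the members was -0.60, against -0.037 for all tested genes. In control mice 14 members fell, with 1.18% of all genes called lower and 2.57% called higher, and the median was -0.76. In KO mice 5 members fell, with 0.747% of all genes called lower and 1.99% called higher, and the median was -0.52. The 5 were Rsad2, Isg15, Usp18, Rtp4 and Xaf1, each of which also fell in control mice. The genotype difference in the day 2 effect was tested directly, and no gene of the table passed (0% called, no member at an unadjusted p under 0.05 in edgeR, and no member called in DESeq2). In whole lung, fewer cells of a type and less RNA per cell cannot be told apart.

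The mean of log2 CPM over the 43 members, here called the module mean and given as a description without a test, shows the libraries one by one. The 3 control libraries at day 2 after naphthalene stood at 3.55, 3.61 and 3.56, and the 3 KO libraries at 4.14, 3.86 and 3.54. Untreated mice of day 2 ranged from 4.06 to 4.63, and all 18 untreated libraries from 4.06 to 5.06 with a median of 4.41. Those of day 2 split by a letter in the library names, with 4.06 to 4.47 for the 4 libraries of letter k and 4.54 to 4.63 for the 2 of letter n, which are control replicate 3 and KO replicate 1. Of the 6 treated libraries, 5 lay below every untreated library, and replicate 1 of the KO mice lay inside the untreated range. In each of the 3 control libraries 42 of the 43 members were below their own untreated mean, and in the KO libraries 31, 41 and 42 were. The share of all tested genes below their own untreated mean in these libraries was not counted. In the day 2 comparison over both genotypes, 42 of the 43 members and 55.3% of all tested genes had a log2 difference below 0.

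**Figure D1:**
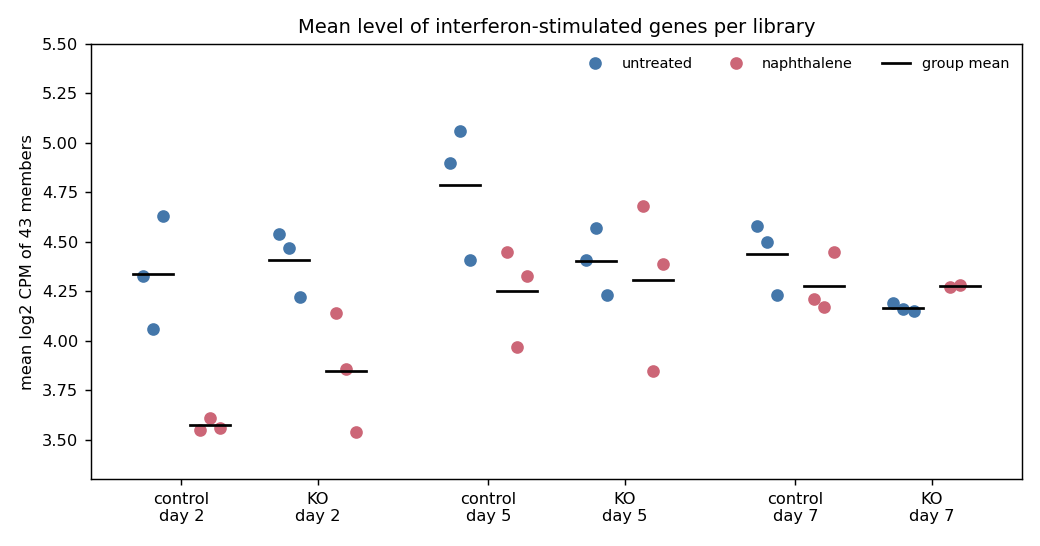
Mean of log2 CPM over the 43 members (y axis) in each of the 35 libraries, by genotype and day label (x axis), with untreated mice in blue, naphthalene-treated mice in red and a black bar at each group mean. The treated control libraries at day 2 sit between 3.55 and 3.61, below all 18 untreated libraries, which run from 4.06 to 5.06.

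Among the signalling genes, Irf7, the factor that amplifies interferon production, and Irf9, the DNA-binding part of the complex, fell, while Stat2 did not pass the test. Irf9 stood at 89.9, 77.9 and 102 CPM in untreated control mice and at 54.1, 59.3 and 54.0 CPM after naphthalene. In KO mice it stood at 73.5, 94.9 and 78.7 CPM untreated and at 62.5, 68.3 and 50.3 CPM treated. All 6 treated libraries were below all 6 untreated libraries of day 2, and the log2 difference over both genotypes was -0.57 ± 0.11 (SE, adjusted p = 0.000333, edgeR). Stat2, which carries the activating part of the complex, stood at 91.3, 63.4 and 142 CPM in untreated controls and at 62.8, 66.8 and 62.9 CPM in treated ones. The untreated libraries spread widely enough to overlap the treated ones, and its difference of -0.50 ± 0.19 had an adjusted p of 0.0931.

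Isg15, a small protein that is attached to other proteins much as ubiquitin is, fell clearly in both genotypes. Its level was 18.4, 19.6 and 14.2 CPM in untreated controls and 5.1, 5.71 and 6.6 CPM after naphthalene. In KO mice it was 10.1, 20.9 and 14.7 CPM untreated and 4.77, 9.32 and 3.22 CPM treated. No treated library reached an untreated one of day 2, and the log2 difference was -1.49 ± 0.20 (adjusted p = 3.08e-06), which leaves 35.5% of the untreated level. Usp18, the enzyme that removes Isg15 from proteins and restrains the receptor, fell by 0.92 ± 0.16 with no overlap (adjusted p = 0.000167). Parp14, an ADP-ribosyltransferase, had a difference of -0.47 ± 0.16 (adjusted p = 0.0661), with 68.9, 52.4 and 108 CPM in untreated and 53.5, 52.8 and 49.0 CPM in treated controls, which overlapped. Herc6, Parp9 and Dtx3l did not pass either, and the 6 genes of this group ran from -1.49 to -0.18.

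Of the 5 sensors of nucleic acid, Dhx58 alone passed the test over both genotypes. Dhx58, a helicase that tunes the signals of Rigi and Ifih1, stood at 9.49, 11.8 and 11.7 CPM in untreated controls and at 5.21, 5.00 and 5.52 CPM in treated ones. In KO mice the values were 7.00, 11.0 and 6.64 CPM untreated and 4.38, 5.95 and 4.80 CPM treated. The groups did not overlap in either genotype, and the log2 difference was -0.89 ± 0.17 (adjusted p = 0.000396). Rigi, a sensor of viral RNA, stood at 67.7, 44.0 and 83.6 CPM in untreated and at 45.5, 47.2 and 47.2 CPM in treated controls, and at 88.6, 74.7 and 63.6 CPM and at 68.0, 50.7 and 47.6 CPM in KO mice. Its groups overlapped in both genotypes, with a difference of -0.47 ± 0.16 (adjusted p = 0.0579), and Ifih1 had one of -0.13 ± 0.18 (adjusted p = 0.734).

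Among the 10 genes for RNA-binding proteins and oligoadenylate synthetases, which make the signal that switches on RNA decay, 4 fell. They were Oasl2, Oas1a, Oas2 and Ifit1. Oasl2 stood at 71.7, 54.2 and 59.8 CPM in untreated controls and at 31.4, 27.5 and 31.6 CPM in treated ones, and in KO mice at 54.3, 69.6 and 59.3 CPM untreated and 48.3, 40.7 and 28.5 CPM treated. Treated and untreated libraries did not overlap, and the log2 difference was -0.84 ± 0.15 (adjusted p = 0.000147). The Ifit genes, whose products bind viral RNA, differed among themselves. Ifit1 fell by 1.04 ± 0.27 (adjusted p = 0.0118), while Ifit2 had a difference of -0.068 ± 0.18 (adjusted p = 0.874) and Ifit3 one of -0.45 ± 0.23 (adjusted p = 0.251). Reads of Ifit3 and Ifit3b, near-identical genes, may have been split or lost in counting, and the same limit holds for Oas1a, Slfn8, Trim30a, Phf11d, Gbp3 and Gbp7, which have close copies in the genome.

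The largest fall of any member was that of Rsad2, which encodes viperin, an enzyme that makes a chain-ending nucleotide for viral RNA. Rsad2 stood at 13.6, 12.4 and 14.2 CPM in untreated controls and at 2.71, 2.91 and 2.54 CPM at day 2 after naphthalene. In KO mice it stood at 15.5, 16.1 and 9.27 CPM untreated and at 6.10, 5.29 and 3.57 CPM treated. The treated libraries lay far below the untreated ones in both genotypes, with log2 differences of -2.30 ± 0.39 in controls (adjusted p = 0.000319) and -1.45 ± 0.37 in KO mice (adjusted p = 0.0256). Treated controls thus kept 20.4% and treated KO mice 36.6% of the untreated level, and the difference between the genotypes, 0.84 ± 0.53 with a 95% interval from -0.23 to 1.92, did not pass. Cmpk2, the next gene to Rsad2 on the opposite strand, whose product makes the substrate of viperin, had a difference of -0.34 ± 0.16 (adjusted p = 0.213), with 23.6, 16.6 and 21.4 CPM in untreated and 16.4, 13.7 and 14.8 CPM in treated controls. Among other neighbours in the genome, Gbp3 (-1.38) lies beside Gbp7 (-0.59), Oas2 (-0.98) beside Oas3 (-0.47), Oasl2 (-0.84) beside Oasl1 (-0.63) and Parp14 (-0.47) beside Dtx3l (-0.18), and no difference between neighbours was tested.

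Rtp4, a chaperone of receptors that also limits virus replication, had the smallest p of all members. It stood at 41.6, 42.5 and 41.4 CPM in untreated controls and at 19.1, 15.9 and 19.9 CPM in treated ones, and in KO mice at 35, 53.5 and 53.9 CPM untreated and 23.5, 23.7 and 14.1 CPM treated. The libraries of the untreated and treated groups were well apart, and the log2 difference was -1.20 ± 0.13 (adjusted p = 7.49e-08). Bst2, or tetherin, which holds budding virus at the cell surface, fell by 0.73 ± 0.17 (adjusted p = 0.00318). Its values of 88.6, 97.6 and 85.7 CPM untreated and 55.5, 47.5 and 63.8 CPM treated were separate in controls, but in KO mice 52.2 CPM in 1 untreated library lay below 60.7 CPM in 1 treated library. Mx2, a cytoplasmic GTPase, fell by 0.95 ± 0.27 (adjusted p = 0.0185), while Mx1, with 1.59 to 7.08 CPM over the day 2 libraries, had a difference of -0.83 ± 0.34 (adjusted p = 0.120).

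The guanylate-binding proteins, GTPases that attack the membranes around microbes, fell over both genotypes in 2 of 3 cases. Gbp3 stood at 19.6, 10.5 and 41.6 CPM in untreated controls and at 8.29, 7.58 and 7.23 CPM in treated ones, and in KO mice at 52.7, 20.9 and 16.6 CPM untreated and 22.4, 10.5 and 8.32 CPM treated. The untreated values spread by several fold, and the log2 difference of -1.38 ± 0.37 (adjusted p = 0.0151) came with overlap in KO mice. Gbp2 stood at 26, 16.8 and 35.2 CPM in untreated and at 16.6, 13.5 and 15.5 CPM in treated controls, and at 39.3, 23.8 and 22.7 CPM and at 29.6, 20.9 and 14.3 CPM in KO mice. It fell by 0.59 ± 0.18 (adjusted p = 0.0324), also with overlap in KO mice, and Gbp7 had a difference of -0.59 ± 0.25 (adjusted p = 0.142).

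Of the other 7 members, 6 fell, and Lgals3bp did not. Xaf1, a partner of an inhibitor of cell death, stood at 40.5, 31.5 and 44.9 CPM in untreated controls and at 20.4, 22.5 and 19.9 CPM in treated ones, and the KO values were 42.2, 43.1 and 42.3 CPM against 25.5, 22.7 and 19.5 CPM. No treated library reached an untreated one, and the log2 difference was -0.90 ± 0.13 (adjusted p = 1.15e-05). Ifi27l2a, a small mitochondrial membrane protein, stood at 18.8, 22.9 and 12.4 CPM in untreated controls and at 4.79, 4.72 and 5.01 CPM in treated ones. It also separated in KO mice, with 11.5, 23.5 and 16.9 CPM against 9.88, 10.2 and 4.28 CPM, and its difference was -1.50 ± 0.25 (adjusted p = 6.91e-05). Lgals3bp, a secreted glycoprotein that binds galectins, was the only member with a difference above 0 over both genotypes (0.33 ± 0.20, adjusted p = 0.358). Its untreated control values of 148, 170 and 66.7 CPM lay on either side of the treated values of 147, 144 and 154 CPM.

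**Figure D2:**
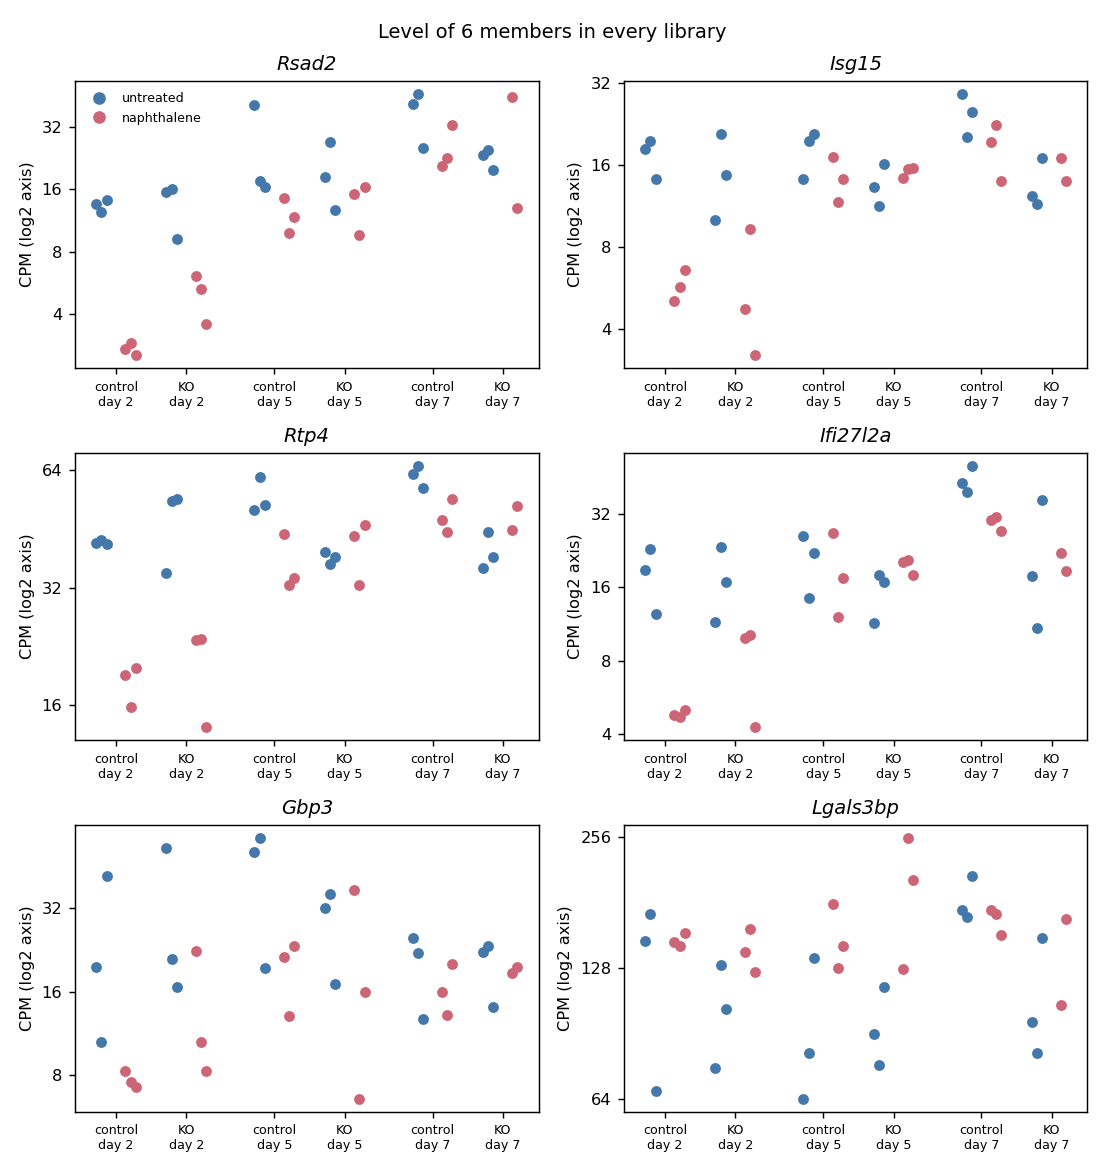
CPM on a log2 axis of 6 members in each of the 35 libraries, by genotype and day label, with untreated mice in blue and naphthalene-treated mice in red. Rsad2, Isg15, Rtp4 and Ifi27l2a lie lower in the treated libraries of day 2 than in the untreated ones, Gbp3 spreads from 10.5 to 57.3 CPM in untreated mice, and Lgals3bp reaches 255 CPM in a treated KO library of day 5.

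Complete separation, with every treated library below every untreated one of the same day and genotype, was seen for 25 members in controls, against 9.76% of all tested genes, and for 14 members in KO mice, against 8.41%. With the 6 treated and 6 untreated libraries of both genotypes pooled, it was seen for 10 members, against 1.47% of all genes. The 10 were Rsad2, Ifi27l2a, Isg15, Rtp4, Oas2, Usp18, Xaf1, Dhx58, Oasl2 and Irf9. Over both genotypes, 15 of the 21 calls stayed under the threshold whichever single library was left out. The other 6 (Ifit1, Mx2, Sp100, Gbp3, Gbp2 and Ifi35) were lost without at least 1 library. Of 12 such fits, they passed in 11, 9, 10, 9, 5 and 3, in that order. In controls alone the calls of Irf7, Usp18, Oas2, Ifi44 and Phf11d were also lost without at least 1 library. Of 6 such fits, they passed in 0, 2, 3, 5 and 1, in that order. In KO mice alone those of Isg15, Usp18, Rsad2 and Xaf1 were lost likewise, and passed in 4, 2, 4 and 5 of 6 fits. In control mice the count of 14 dropped to 9 without replicate 3 of the untreated mice. In KO mice the count of 5 became 2 without untreated replicate 2, 1 without treated replicate 3 and 9 without untreated replicate 1. Over all genes, that control fit called 784 in either direction, and these KO fits called 239, 216 and 1099 in that order.

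**Figure D3:**
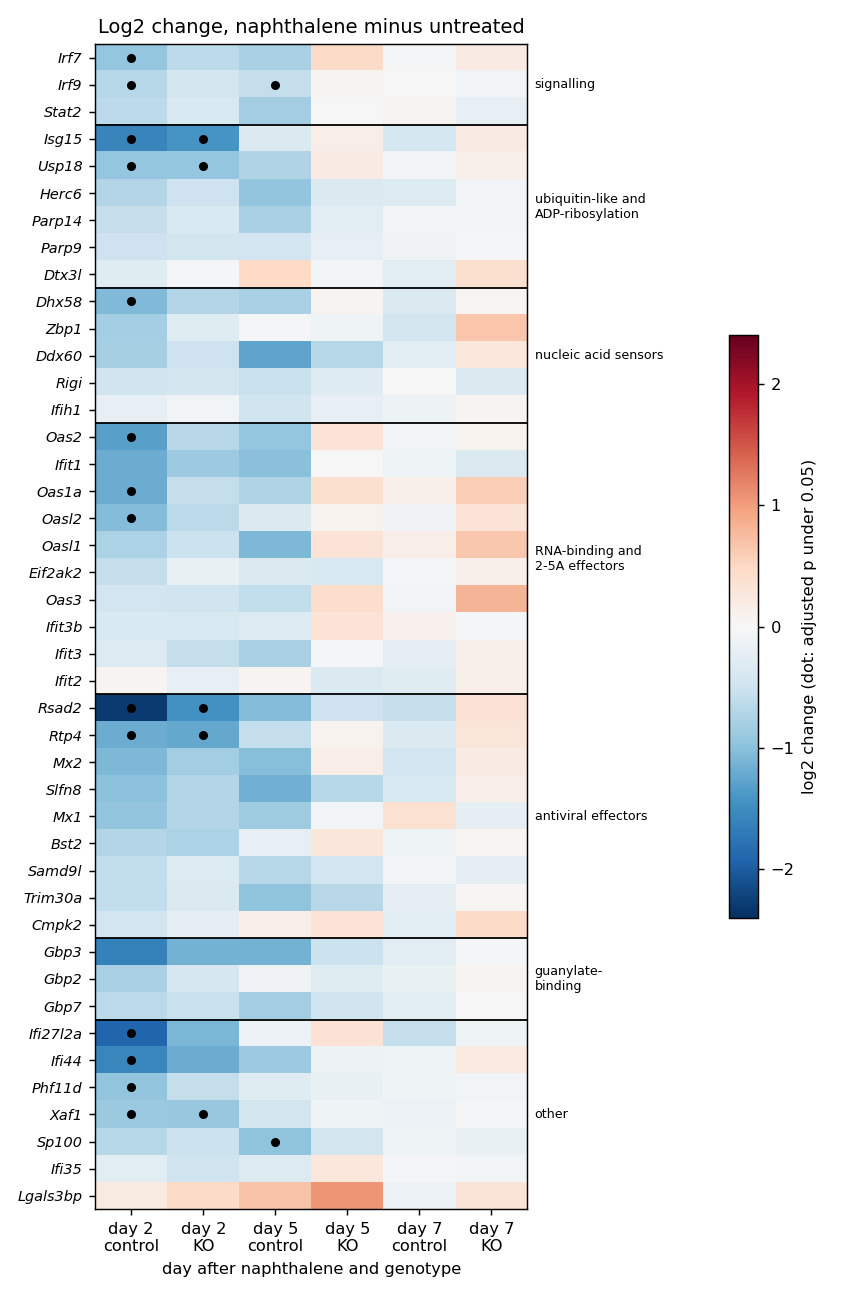
Log2 difference between naphthalene-treated and untreated mice for each of the 43 members (rows, by role) at each day and genotype (columns), from blue (lower after naphthalene) to red (higher), with a dot where the adjusted p was under 0.05. Dots mark 14 members in controls and 5 in KO mice at day 2, 2 in controls at day 5, and none in the other 3 columns.

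Of the members with a promoter window, 15 fell over both genotypes and 18 were not called, and the element core was present in 7 of the 15 and in 11 of the 18. Isg15, with 3 cores, fell by 1.49, while Ifit3, with 2, had a difference of -0.45 and Xaf1, with none in its window, fell by 0.90.

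None of the 6 receptor genes passed at day 2 over both genotypes (median -0.05, smallest adjusted p 0.102 for Ifnlr1), nor did any of the 12 sensing genes such as Tlr7, Mavs and Sting1 (median -0.10, smallest adjusted p 0.253 for Cgas) or any of the 5 negative regulators. At an unadjusted p under 0.05 in edgeR there were 2 receptor genes, no sensing gene and 2 negative regulators. Of 7 other interferon regulatory factors, Irf1, which answers to interferon gamma, fell (-0.34 ± 0.10, adjusted p = 0.0316). Among 36 further interferon-stimulated genes, 7 fell and 2 rose, with a median of -0.24. Nlrc5, the activator of class I genes, fell by 0.98 ± 0.23 (adjusted p = 0.00464), and the 2 that rose were Ifitm1 (0.92 ± 0.16, adjusted p = 0.000137) and Plscr1 (0.38 ± 0.11, adjusted p = 0.0185). Of 17 genes known mainly as targets of interferon gamma 7 fell and none rose, with a median of -0.69. Gbp4 fell by 1.79 ± 0.28 (adjusted p = 2.85e-05) and Cxcl10, a chemokine for T and NK cells, by 1.44 ± 0.43 (adjusted p = 0.0284). Of 13 genes of class I antigen presentation 4 fell, led by Psme2 (-0.55 ± 0.12, adjusted p = 0.00178), while B2m did not pass (-0.48 ± 0.16, adjusted p = 0.0591).

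Markers of several cell types moved in the same comparison. NK cell markers fell in 4 of 10 cases (Ncr1, Nkg7, Gzma and Eomes, median of the list -0.82), B cell markers in 4 of 6 (median -0.71) and red cell markers in 3 of 6 (median -1.0). The summed level of the B cell markers was 413 to 604 CPM in untreated and 293 to 361 CPM in treated controls, and that of the red cell markers 3980 to 4730 CPM and 1710 to 2430 CPM. In KO mice the B cell sums were also apart (421 to 535 CPM and 190 to 324 CPM), and the red cell sums overlapped (2960 to 5130 CPM and 1980 to 3030 CPM). In controls the summed NK cell markers overlapped, with 47.0 to 84.8 CPM untreated and 53.2 to 60.3 CPM treated. They overlapped in KO mice too (54.3 to 67.8 CPM and 55.8 to 62.4 CPM). Neutrophil markers rose in 4 of 7 cases (median 1.26) and summed to 91.4 to 328 CPM in untreated and 373 to 507 CPM in treated controls, with overlap in KO mice (107 to 144 CPM and 119 to 384 CPM). Alveolar macrophage markers rose in 3 of 7 cases, and those of classical monocytes and of interstitial macrophages in 2 of 6 each. Chil3 is in the lists of both alveolar macrophages and classical monocytes. The alveolar macrophage sums were apart in controls (107 to 127 CPM untreated and 312 to 495 CPM treated) and in KO mice (103 to 140 CPM and 333 to 502 CPM). Of 6 nonclassical monocyte markers, 2 fell and 1 rose over both genotypes (median -0.34), and 3 fell in controls alone (median -0.57). Their summed level went the other way. It was 1200 to 1680 CPM in untreated and 1650 to 2350 CPM in treated controls, which overlapped. In KO mice it was 940 to 1380 CPM and 1460 to 1990 CPM. Of 5 endothelial markers 1 fell, and club cell markers fell in 4 of 5, with Scgb1a1 at -3.77 ± 0.21 (adjusted p = 6.03e-14). No T cell marker of 7 and no marker of 6 tested for plasmacytoid dendritic cells, the strongest makers of type I interferon, passed in edgeR, and 0 and 2 of them had an unadjusted p under 0.05. No marker of these lists was at 0 in any day 2 group. Mitochondrial transcripts took 1.63% to 2.57% of treated and 0.752% to 1.53% of untreated day 2 libraries. A letter in the library names is a for all treated mice of day 2 and k or n for the untreated ones, so that treatment and whatever the letter stands for cannot be told apart at this day. The part of these markers and shares in the fall of the members was not tested.

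**Figure D4:**
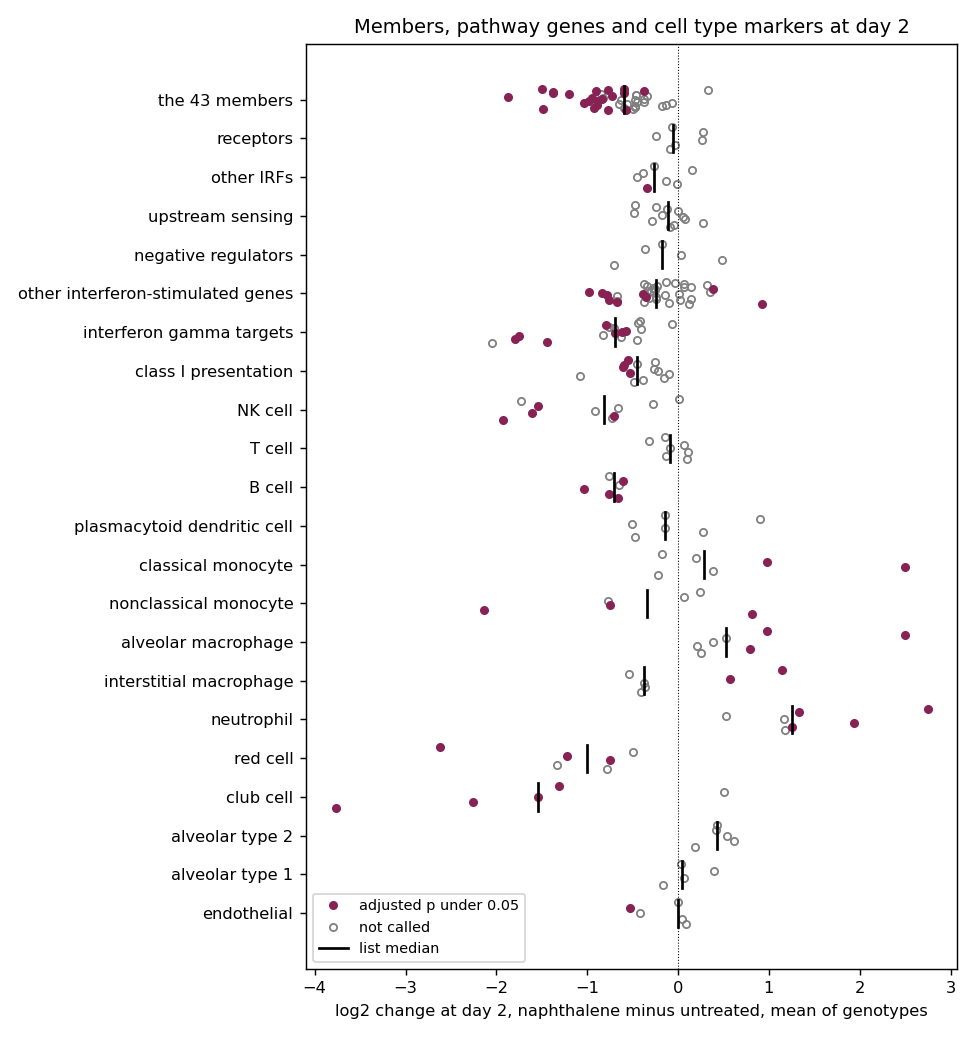
Log2 difference at day 2 over both genotypes, naphthalene minus untreated, for each gene (points) of the 43 members, 7 pathway lists and 14 cell type lists (rows), filled where the adjusted p was under 0.05, with the median of each list as a black bar. The members have a median of -0.60, close to the interferon gamma targets at -0.69, while the receptors lie near 0 at -0.05 and the neutrophil markers at 1.26.

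At day 5 the members were closer to their own untreated level in KO mice than in control mice by median, but the genotype difference was not established for any gene. The group module means of treated mice were 4.25 in controls and 4.3 in KO mice. Those of untreated mice were 4.79 and 4.4, so the gap lay mainly in the untreated groups. In controls 2 members fell, Sp100 and Irf9, against 1.29% of all genes called lower, and the median was -0.68. Sp100, a protein of nuclear bodies, stood at 176, 205 and 108 CPM in untreated controls and at 92.8, 80.1 and 78.1 CPM in treated ones. Irf9 stood at 111, 140 and 103 CPM and at 84.2, 71.5 and 80.0 CPM. Neither gene's groups overlapped, with log2 differences of -0.96 ± 0.24 (adjusted p = 0.0339) for Sp100 and -0.58 ± 0.15 (adjusted p = 0.0347) for Irf9. In KO mice no member passed in edgeR, against 1.32% of all genes, although 2 had an unadjusted p under 0.05 and DESeq2 called 1. The median there was -0.061.

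The name letter is b for the treated libraries of day 5 (i for KO replicate 2) and f for the untreated ones (o for control replicate 1 and KO replicate 2), so that the letter cannot be told apart from the treatment here either. The control result at day 5 rested on untreated libraries that were unlike each other. The module means of the untreated controls of day 5 were 4.90, 5.06 and 4.41, and the first 2 are the highest of all 35 libraries. The treated controls stood at 4.45, 3.97 and 4.33, and the treated KO mice at 4.68, 3.85 and 4.39. Untreated KO mice of day 5 stood at 4.41, 4.57 and 4.23. Without untreated replicate 1 no member was called in controls and the median was -0.59. Without untreated replicate 2 none was called and the median was -0.45. Without untreated replicate 3 there were 25 calls, of which 23 were lower, with a median of -0.84. Over all genes, these fits called 23, 154 and 3544 in that order, in either direction. Leaving out any 1 of the treated control libraries also left no member called. In these 3 untreated libraries haemoglobin transcripts took 0.541% to 1.49% of the counts, and B cell markers summed to 349 to 695 CPM, against 197 to 226 CPM in the treated controls. Interstitial macrophage markers summed to 92.2 to 858 CPM, against 126 to 139 CPM, and NK cell markers to 47.5 to 175 CPM, against 63.6 to 79.9 CPM. The part of these values in the result was not tested.

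Over both genotypes at day 5, 5 members fell (Parp14, Ddx60, Trim30a, Slfn8 and Sp100), against 2.82% of all genes, and Lgals3bp rose, against 4.34%. Lgals3bp stood at 64.1, 81.7 and 135 CPM in untreated and 180, 128 and 144 CPM in treated controls, and in KO mice at 90.3, 76.6 and 116 CPM and at 127, 255 and 204 CPM. Treated libraries were higher in KO mice without overlap, and in controls they overlapped, for a log2 difference of 0.87 ± 0.21 (adjusted p = 0.00882). Trim30a fell by 0.82 ± 0.21 (adjusted p = 0.0183). Of these 6 calls, those of Lgals3bp and Sp100 stayed under the threshold whichever library was left out. The other 4 were lost without at least 1 library, with the largest adjusted p each time without treated KO replicate 2. Of 12 such fits, Trim30a passed in 9, Ddx60 and Slfn8 in 3 each and Parp14 in 2. The count of members called lower ranged from 1, without untreated replicate 2 or treated replicate 2 of the KO mice, to 15, without treated replicate 1 of the KO mice. It was 10 without untreated control replicate 3, 6 without untreated KO replicate 3 and 2 without each of the other libraries. Over all genes, calls in either direction ranged from 556 without treated KO replicate 2 to 4073 without treated KO replicate 1.

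Irf7 had the smallest p of the members for the difference between the genotypes at day 5. It stood at 44.2, 70.8 and 37.2 CPM in untreated and 37.9, 20.1 and 31.4 CPM in treated controls, and in KO mice at 23.9, 27.4 and 32.9 CPM and at 44.6, 35.3 and 36.2 CPM. All treated KO libraries were above the untreated ones, while those of the controls overlapped. Its difference in KO mice was 0.46 ± 0.25 (adjusted p = 0.446), where the median of the 43 members was -0.061 and 24 of them lay below 0. The effect in KO minus that in controls was 1.23 ± 0.36, with an adjusted p of 0.544. No gene of the table passed this test (0% called). Of the members, 11 had an unadjusted p under 0.05, as did 1869 of the 20606 tested genes, DESeq2 called none, and the median of the difference was 0.51. A fit without the filter on low counts did call a member.

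By day 7 no member differed from untreated mice past the threshold. In edgeR none was called in controls (0.0388% of all genes called), in KO mice (0.0728%) or over both genotypes (0.374%), and DESeq2 called none. At an unadjusted p under 0.05 there were none in controls, 3 in KO mice (Zbp1, Oas3 and Oas1a) and none over both. The medians were -0.11, 0.074 and -0.051. Treated libraries had module means of 4.21, 4.17 and 4.45 in controls and 4.27 and 4.28 in KO mice, against 4.58, 4.50 and 4.23 and against 4.19, 4.16 and 4.15 in untreated mice. All treated and untreated libraries of day 7 carry the same name letter, p. Rsad2 stood at 41.4, 46.2 and 25.4 CPM in untreated and 20.8, 22.6 and 32.9 CPM in treated controls, and at 23.4, 24.9 and 19.8 CPM and at 44.6 and 13 CPM in KO mice. The groups overlapped in both genotypes, and the log2 difference over both was -0.11 ± 0.26, with a 95% interval from -0.64 to 0.42. Isg15, at 29.2, 20.4 and 25.2 CPM in untreated and 19.5, 22.5 and 14.0 CPM in treated controls, had a difference over both genotypes of -0.12 ± 0.20, with an interval from -0.53 to 0.30.

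The change in the naphthalene effect between day 2 and day 7 was tested as a difference of differences, with each day set against its own untreated mice. Treated and untreated libraries carry different name letters at day 2 and at day 5, and the same letter at day 7. A change of the effect between days therefore cannot be told apart from whatever the letters stand for. For 8 members the effect was higher at day 7, against 0.461% of all genes, and for none was it lower. These were Rsad2 (1.76 ± 0.37, adjusted p = 0.0113), Ifi44 (1.44 ± 0.36, adjusted p = 0.0400), Isg15 (1.38 ± 0.28, adjusted p = 0.00990), Oas1a (1.23 ± 0.26, adjusted p = 0.0113), Rtp4 (1.18 ± 0.19, adjusted p = 0.000994), Oasl2 (0.96 ± 0.21, adjusted p = 0.0178), Usp18 (0.95 ± 0.24, adjusted p = 0.0377) and Xaf1 (0.83 ± 0.19, adjusted p = 0.0250). Among these 8, Rsad2 was called higher and Oas1a, Oasl2 and Xaf1 lower in untreated mice of day 7 than of day 2. A change of the effect can thus also lie in the untreated level. The median of the members was 0.67, against 0.035 for all genes. Between day 2 and day 5 the effect was higher for 3 members, against 0.451% of all genes. They were Ifi27l2a (1.60 ± 0.34, adjusted p = 0.0185), Isg15 (1.40 ± 0.28, adjusted p = 0.0115) and Rtp4 (0.96 ± 0.18, adjusted p = 0.00685). The calls of Isg15, Oas1a and Rtp4 for day 7 and of Isg15 and Rtp4 for day 5 held with any single library left out. The others were lost without at least 1, that of Rsad2 without treated KO replicate 1 of day 7, from a group of 2. Over the 23 fits for day 7 the log2 difference of Rsad2 ran from 1.17 to 2.09. Of these fits, Usp18 passed in only 5, Ifi44 in 6, Xaf1 in 17 and Oasl2 and Rsad2 in 22 each. For day 5, Ifi27l2a passed in 22 of 24 fits. The count of 8 fell to 4 without either treated KO library of day 7 and to 5 without treated KO replicate 3 of day 2, untreated control replicate 3 of day 7 or treated control replicate 3 of day 7. Over all genes, the fits without treated KO replicate 1 or 2 of day 7 called 125 and 158, in either direction. Over the 23 fits these calls ran from 107 to 334.

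The genotypes were also compared within each treatment. In untreated mice no gene passed between KO and control (0% called), yet 17 members had an unadjusted p under 0.05, as did 1759 of the 20606 tested genes, and the median was -0.17, with DESeq2 calling none. Without the filter on low counts, 3 members were called. Irf7 had the smallest p, with a log2 difference of -0.66 ± 0.15 (adjusted p = 0.581). Over the 3 day labels Irf7 stood at 28.3 to 70.8 CPM in untreated controls and at 17.7 to 38.6 CPM in untreated KO mice, with overlap. In naphthalene-treated mice no gene passed either (0% called). There 1 member, Ifih1, had an unadjusted p under 0.05, DESeq2 called none, and the median was 0.14. The difference in the naphthalene effect at day 7 had no call (0%), 4 members at an unadjusted p under 0.05 among 882 such genes of all tested, none in DESeq2 and a median of 0.25.

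Untreated mice differed from each other as well. The SD of log2 CPM around the group means of the 18 untreated libraries had a median of 0.353 over the members, against 0.369 for all tested genes and 0.297 for the 11875 genes within the members' range of mean level. It was largest for Gbp3 (0.733), Mx1 (0.686) and Ddx60 (0.593) and smallest for Irf9 (0.159), Rtp4 (0.176) and Xaf1 (0.209). Mx1, a GTPase that blocks influenza virus in the nucleus, ran from 1.59 to 10.2 CPM in untreated mice, a 6.42-fold range, while Rtp4 ran from 35 to 65.7 CPM, a 1.88-fold range. Ddx60, a helicase that assists the sensors, ran from 4.68 to 17.1 CPM. In the untreated controls of day 5, Mx1 stood at 8.51, 10.2 and 2.29 CPM and Ddx60 at 15.8, 17.1 and 6.03 CPM, so that both were high in the first 2 libraries and low in the third. Many of the high values came from the same library, as 23 of the 43 members had their highest untreated level in replicate 2 of the control mice of day 5, and 5 more in replicate 1 of that group. The lowest untreated level was in replicate 2 of the control mice of day 2 for 14 members. Members did not all follow this pattern, and Isg15, Bst2, Rtp4, Ifi27l2a, Rsad2, Oas3, Lgals3bp and Dtx3l were highest in untreated controls of day 7. How many of all tested genes had their highest or lowest untreated level in each library was not counted. The counts of members therefore do not set them apart from other genes.

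**Figure D5:**
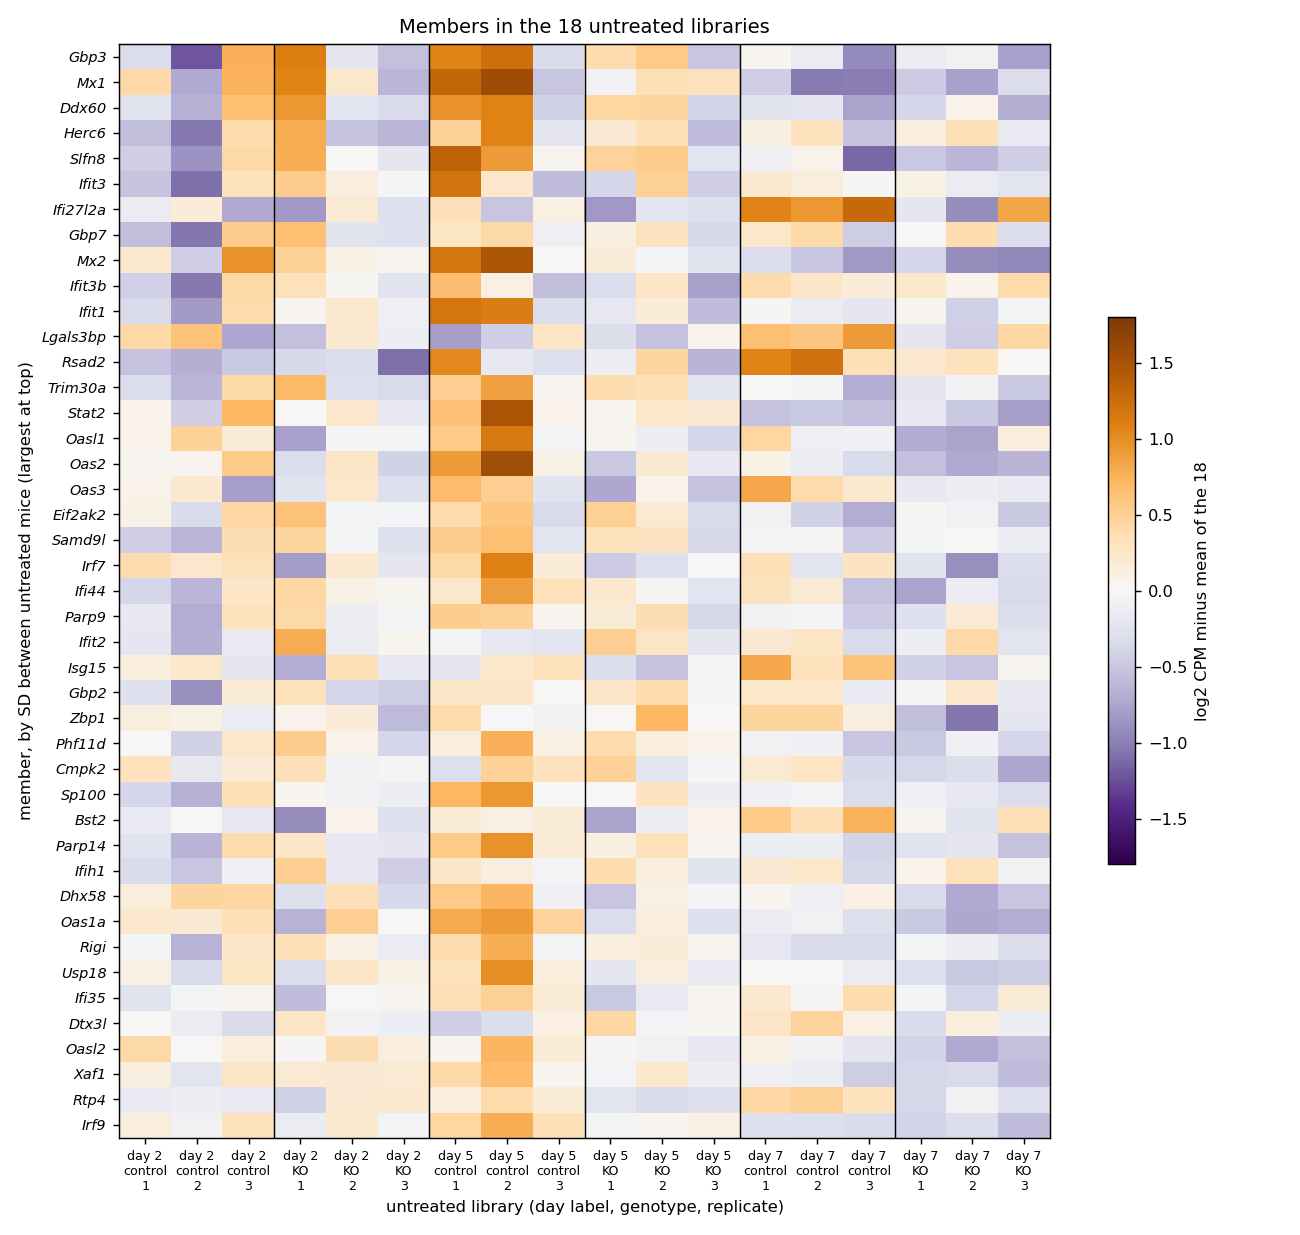
Log2 CPM of each member (rows, ordered by SD between untreated mice) minus its mean over the 18 untreated libraries (columns, by day label, genotype and replicate), from purple (below the mean) to orange (above it). Replicate 2 of the control mice of day 5 holds the highest untreated value of 23 members, and the same count over all tested genes was not made.

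Untreated mice of days 5 and 7 were each compared with those of day 2, and not with each other. Between day 5 and day 2 no member passed in edgeR (0.476% of all genes called) or in DESeq2, and 5 had an unadjusted p under 0.05. Between day 7 and day 2, 7 members were lower at day 7, against 7.7% of all genes, and 3 were higher, against 6.06%. Lower were Irf9 (-0.44 ± 0.11, adjusted p = 0.00600), Mx1 (-1.02 ± 0.34, adjusted p = 0.0435), Mx2 (-0.96 ± 0.27, adjusted p = 0.0162), Stat2, Oas1a, Oasl2 and Xaf1. Higher were Rsad2 (1.11 ± 0.25, adjusted p = 0.00325), Ifi27l2a (0.81 ± 0.24, adjusted p = 0.0204) and Bst2 (0.53 ± 0.17, adjusted p = 0.0314). Mx2, a relative of Mx1, stood at 5.02, 3.14 and 8.56 CPM in untreated controls of day 2 and at 3.41, 2.97 and 2.37 CPM in those of day 7. Rsad2 had no overlap between the 6 libraries of each day, and Irf9 likewise, in the opposite direction. The treated libraries of day 7 are thus set against a higher untreated level of Rsad2 than those of day 2. For Oas1a, Oasl2 and Xaf1 they are set against a lower one. Xaf1 stood at 40.5, 31.5 and 44.9 CPM in untreated controls of day 2 and at 35.2, 34.1 and 27 CPM in those of day 7. In treated controls it stood at 20.4, 22.5 and 19.9 CPM at day 2 and at 25.6, 25.6 and 36.3 CPM at day 7. The calls of Irf9 and Rsad2 held with any single library left out. Of 12 such fits, Mx2 passed in 11, Oasl2 in 10, Xaf1 in 9 and Ifi27l2a in 8. Stat2 passed in 7, Bst2 in 6, Oas1a in 5 and Mx1 in 2. The 10 calls became 3 without control replicate 3 of day 2, 4 without KO replicate 3 of day 7, 5 without control replicate 3 of day 7, and 6 without control replicate 1 or KO replicate 2 of day 2 or control replicate 1 of day 7. Red cell markers summed to 2960 to 5130 CPM in untreated mice of day 2 and 7300 to 24100 CPM in those of day 7, and the name letters are k and n against p. The day label and the letter cannot be told apart here, and the part of red cell RNA was not tested.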

How the data were processed

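The deposited table holds counts per gene, whole numbers that the authors made from RNA-seq reads of whole lung (Trizol extraction and a Watchmaker Genomics mRNA kit, per the labels). The submitters' processing notes name GRCm39 and DESeq2 without a role, and for aligner, counting program and annotation the entry is "not given in the sources used here". Strand use is not stated either, so reads of overlapping genes cannot be told apart. In R 4.3.3 with edgeR 4.0.16 and limma 3.58.1, genes were kept by filterByExpr on the 12 groups and scaled by TMM, and 1 robust quasi-likelihood fit of the 12 group means (23 residual degrees of freedom) gave 18 two-sided comparisons, adjusted by Benjamini-Hochberg over 20606 genes with a threshold of 0.05. SE is that of the contrast, and log2 CPM used a prior count of 2. Over both genotypes, a value is the mean of the 2 genotype effects. Alternatives were other scalings, no filter, a fit of the compared groups, DESeq2 1.42.0, a replicate block and each library left out. Tests were checked on simulated data.

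The members, lists and tests were chosen with earlier results of these data known, and no list was tested as a set. Per-library values (for some, of part of the groups or as ranges) were given for the member with the smallest p and the one with the highest CPM in each role, members called between untreated day labels (the 5 smallest p), and the 3 largest and 3 smallest SDs in untreated mice; others given per library (Cmpk2, Sp100, Irf7) and the neighbours and promoters were chosen after their values were seen. Of the pathway lists, 1 is not reported here. No 2 libraries held identical counts.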

Additional observations from a re-analysis of the deposited data

Results flagged for a closer look

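Between day 2 and day 7 the test of the difference itself (edgeR quasi-likelihood, Benjamini-Hochberg adjusted over all genes) called 8 members, whose naphthalene effect was higher at day 7 on the log2 scale by 1.38 for Isg15, 0.95 for Usp18, 1.23 for Oas1a, 0.96 for Oasl2, 1.76 for Rsad2, 1.18 for Rtp4, 1.44 for Ifi44 and 0.83 for Xaf1. The same test between day 2 and day 5 called Isg15 (1.4), Rtp4 (0.96) and Ifi27l2a (1.6). Neither change between days can be told apart from the letters in the library names.

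In other cases every treated library of 1 group lay below the untreated ones and every treated library of another lay above them. At day 5, 16 members were separated downward in controls and 4 upward in KO mice. At day 7, 4 were separated downward in controls and 5 upward in KO mice. The share of all genes separated in these ways was not counted for these days, so the cases are not read as a trait of the members. At day 5 Oasl1 had a log2 difference of -1.08 in controls and 0.32 in KO mice. At day 7 Zbp1 had -0.45 in controls and 0.67 in KO mice, and Rtp4 had -0.35 and 0.29. The genotype difference was tested for these 3, and none passed in edgeR (adjusted p = 0.544 for Oasl1 and 0.969 for Zbp1 and Rtp4). Within KO mice, Oasl2 had -0.64 at day 2 and 0.32 at day 7, Rtp4 had -1.22 and 0.29 at these days, and Ifi27l2a had -1.1 at day 2 and 0.35 at day 5. The difference between days was not tested within KO mice alone, whose day 7 group has 2 treated libraries.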

How the results depend on the processing

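The fall over both genotypes at day 2 (21 members) changed little, with 22 calls in DESeq2 and 16 to 25 with single libraries left out. Its median ran from -0.70 to -0.55 over 21 settings. Leaving out 1 library gave 9 to 15 calls at day 2 in controls (14 in full), 1 to 9 in KO mice (5), 0 to 25 at day 5 in controls (2), 0 to 2 at day 5 in KO mice (0), 2 to 16 at day 5 over both (6), 4 to 9 for day 7 minus day 2 (8), 0 to 2 for untreated day 5 minus 2 (0) and 3 to 10 for untreated day 7 minus 2 (10). Calls over all genes moved in these fits as well. They ran from 1296 to 2577 at day 2 over both genotypes, from 468 to 784 in controls and from 216 to 1099 in KO mice. For day 7 minus day 2 they ran from 107 to 334. At day 5 they ran from 23 to 3544 in controls, 68 to 901 in KO mice and 556 to 4073 over both. For untreated day 5 minus 2 they ran from 21 to 441, and for untreated day 7 minus 2 from 1720 to 3309. Without the filter on low counts, calls of members were 10 at day 2 in KO mice, 19 in controls, 1 in KO mice and 11 over both at day 5, 1 for the genotype difference at day 5, 7 for day 5 minus day 2, 1 for untreated day 5 minus 2 and 3 for KO minus control untreated. A fit of only the compared groups gave 3 at day 2 in KO mice, 0 at day 5 in controls, 1 at day 5 over both and 4 for untreated day 7 minus 2. DESeq2 gave 12 at day 5 in controls, 1 at day 5 in KO mice and 5 for day 5 minus day 2, and upper-quartile factors gave 1 at day 5 in controls. Calls over all genes in these settings are not given here, so these shifts are not read as a trait of the members. The cause was not tested. Scalings moved the median of all genes by at most 0.0532 (log2).

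Of 728 alternative values for 91 results on single members, 646 kept direction and side of the threshold, 61 were no longer past it, 19 newly passed and 2 reversed. The reversed ones were uncalled values over both genotypes at day 2, Ifih1 (-0.24 to 0.029 over the libraries left out) and Ifit2 (-0.15 to 0.098). Same-numbered samples did not deviate together (3 of 17 pairs had a correlation over 0.1, range -0.305 to 0.156). A fit with the replicate block gave 22 calls at day 2 over both genotypes, 15 in controls, 5 in KO mice, and 7 for day 7 minus day 2. At these depths 1 read is at most 0.0886 CPM, and Slfn8 and Mx1, with means of 3.07 and 3.39 CPM, have the fewest reads of the members.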
